A study of Homo sapiens with 6 samples.

Results

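The genes described here encode the nuclear machinery through which Wnt signalling reaches DNA, and they were followed in SW480 cells, a line established from a human colorectal cancer, with and without added HNF4A. They were chosen by name, 10 genes in all (CTNNB1, CTNNBIP1, TCF7, TCF7L1, TCF7L2, LEF1, BCL9, BCL9L, PYGO1 and PYGO2), out of 59332 distinct names in the deposited expression table. Each of the 10 was found in the table, and 9 were expressed enough to be tested. The study compared 3 libraries labelled as overexpressing HNF4A, titled lenti-HNF4a, with 3 libraries labelled control, titled lenti, which the column names of the table call plenti. All 6 come from SW480 grown in the same medium and collected in Trizol. HNF4A is a nuclear receptor of liver and gut epithelium. The labels do not say which promoter drives the added gene or whether the cells are a clone or a pool. The series title names HNF4A as a target of the Wnt/beta-catenin pathway, and the comparison here asks the reverse question, whether the transcripts of the pathway's nuclear complex differ when HNF4A is high.

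Beta-catenin has no DNA-binding domain of its own. When it escapes degradation it enters the nucleus and binds the TCF/LEF proteins, which sit on DNA through an HMG box and, without beta-catenin, recruit repressors of the Groucho/TLE family. BCL9 or BCL9L then links beta-catenin to a Pygopus protein, which reads methylated histone H3, while CTNNBIP1 (ICAT) blocks the contact between beta-catenin and the TCF/LEF proteins. SW480 carries a truncated APC, so beta-catenin is stable in these cells without a Wnt ligand. Several TCF/LEF genes also have internal start sites that give proteins without the beta-catenin-binding end, which act as repressors. Values at gene level do not tell these forms apart.

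TCF7 rose in the HNF4A overexpression libraries, and no other complex gene passed the test. TCF7 encodes TCF1, a TCF/LEF factor that is itself a known target of Wnt signalling, and lies on chromosome 5 from 134114711 to 134151865 (GRCh38, GENCODE 29, plus strand). RefSeq gives it a pair of start windows, shown because a gene-level rise could come from either. Each runs from 250 bases before the start to 50 after it (build GRCh38.p14, plus strand), with the transcribed bases in capitals.
TCF7 first window, chr5:134115363-134115662: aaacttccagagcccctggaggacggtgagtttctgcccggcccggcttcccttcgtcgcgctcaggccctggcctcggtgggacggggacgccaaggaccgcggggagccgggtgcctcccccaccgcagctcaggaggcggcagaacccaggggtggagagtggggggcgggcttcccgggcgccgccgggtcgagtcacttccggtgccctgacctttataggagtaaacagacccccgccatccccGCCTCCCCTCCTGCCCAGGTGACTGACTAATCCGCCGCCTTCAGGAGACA
TCF7 second window, chr5:134123368-134123667: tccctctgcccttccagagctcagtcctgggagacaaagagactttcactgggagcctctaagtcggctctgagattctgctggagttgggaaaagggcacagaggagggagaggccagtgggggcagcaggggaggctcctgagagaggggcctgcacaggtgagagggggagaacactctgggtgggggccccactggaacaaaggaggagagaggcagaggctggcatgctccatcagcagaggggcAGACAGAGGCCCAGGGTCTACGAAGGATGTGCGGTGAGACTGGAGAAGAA
Of 14 coding TCF7 transcripts in GENCODE 29, 10 start within 1000 bases of the first start site and the other 4 start later, near the second site or beyond it. The first window is richer in G and C, at 69.7 percent, against 61.0 percent in the second. Neither window holds an exact match to TCAAAG, a TCF/LEF core, or to AAGTCCA, an HNF4 core, on either strand. Other spellings of these sites were not searched, so their absence is not shown. The second window does hold ACAAAG, which differs from TCAAAG in its first base only. No exact match to either motif was found in any of the 13 RefSeq windows of the 9 complex genes with an entry, BCL9L having none. Of 35116 RefSeq windows of 300 bases, 12.9 percent held the first motif and 3.39 percent the second. LEF1 has 1 window, and 3 of its 6 coding transcripts in GENCODE 29 start within 1000 bases of that start site. The others start farther upstream, where no window was searched.

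The libraries matched their labels. HNF4A stood at 1143, 720.6 and 852 FPKM (fragments per length of transcript, relative to the total of the library) in HNF4A overexpression and at 8.81, 6.57 and 7.47 FPKM in control. FPKM keep no fragment counts, so the depth of each library is unknown, and 13905 to 14213 rows per library reached 1 FPKM. All 6 listed epithelial markers passed the filter, with a summed level of 4752 to 5304 FPKM in HNF4A overexpression and 5296 to 6012 FPKM in control. Of these, CDH1 and VIL1 rose (limma adjusted p = 0.00522 and 0.00182), and KRT18 and KRT19 were lower at an unadjusted p under 0.05 only (limma adjusted p = 0.0956 and 0.140). Of the reported markers of other cell types, CD68 and COL1A1 passed the filter and the others did not. Among those, PTPRC, CD3E, PECAM1 and CDH5 were at 0.146 FPKM or less in each library, and COL1A2, COL3A1 and LUM at 0.158 or less. VWF was at 0.254 to 0.338 FPKM in HNF4A overexpression and 0.184 to 0.239 FPKM in control, without overlap. PDGFRB was at 0.147 to 0.314 FPKM in HNF4A overexpression and 0.221 to 0.266 FPKM in control. DCN reached 0.333 FPKM in HNF4A overexpression replicate 2 and was at 0 elsewhere. The summed level of 3 immune markers was 2.66 to 2.96 FPKM in HNF4A overexpression and 0.529 to 0.808 FPKM in control, most of it CD68, which rose (limma adjusted p = 0.00160), and that of the 6 fibroblast markers was 3.43 to 3.63 FPKM in HNF4A overexpression and 2.18 to 2.90 FPKM in control, most of it COL1A1. The sum of the 3 endothelial markers was 0.258 to 0.411 FPKM in HNF4A overexpression and 0.184 to 0.239 FPKM in control. The part of these differences in the results below was not tested.

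CTNNB1, the beta-catenin gene on chromosome 3 from 41194741 to 41260096, was by far the most abundant of the 10. It was measured at 381, 390 and 388 FPKM in HNF4A overexpression and at 389, 414 and 373 FPKM in control, above 98.5 percent of all tested genes by its mean over the 6 libraries. The overexpression libraries lay inside the range of the controls. Its log2 change was -0.02 (standard error 0.05, limma adjusted p = 0.896), and the 95 percent interval, read as a fold, ran from 0.912 to 1.07. ULK4, a kinase-like gene that overlaps CTNNB1 on the other strand, averaged 7.73 ± 1.29 FPKM in HNF4A overexpression and 8.15 ± 0.143 FPKM in control (SD, n = 3 each), low beside beta-catenin itself.

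CTNNBIP1, the inhibitor (chromosome 1, 9848276 to 9910336, minus strand), stood at 7.47, 8.32 and 9.48 FPKM in HNF4A overexpression and at 7.38, 8.44 and 8.37 FPKM in control. The groups overlapped almost fully (log2 change 0.05, standard error 0.10, limma adjusted p = 0.838, fold interval 0.890 to 1.21). The level of CTNNBIP1 was 2.18 ± 0.244 percent of that of CTNNB1 in HNF4A overexpression and 2.06 ± 0.176 percent in control (SD, n = 3 each), so transcripts of the inhibitor were scarce beside those of its target in both groups.

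**Figure D1:**
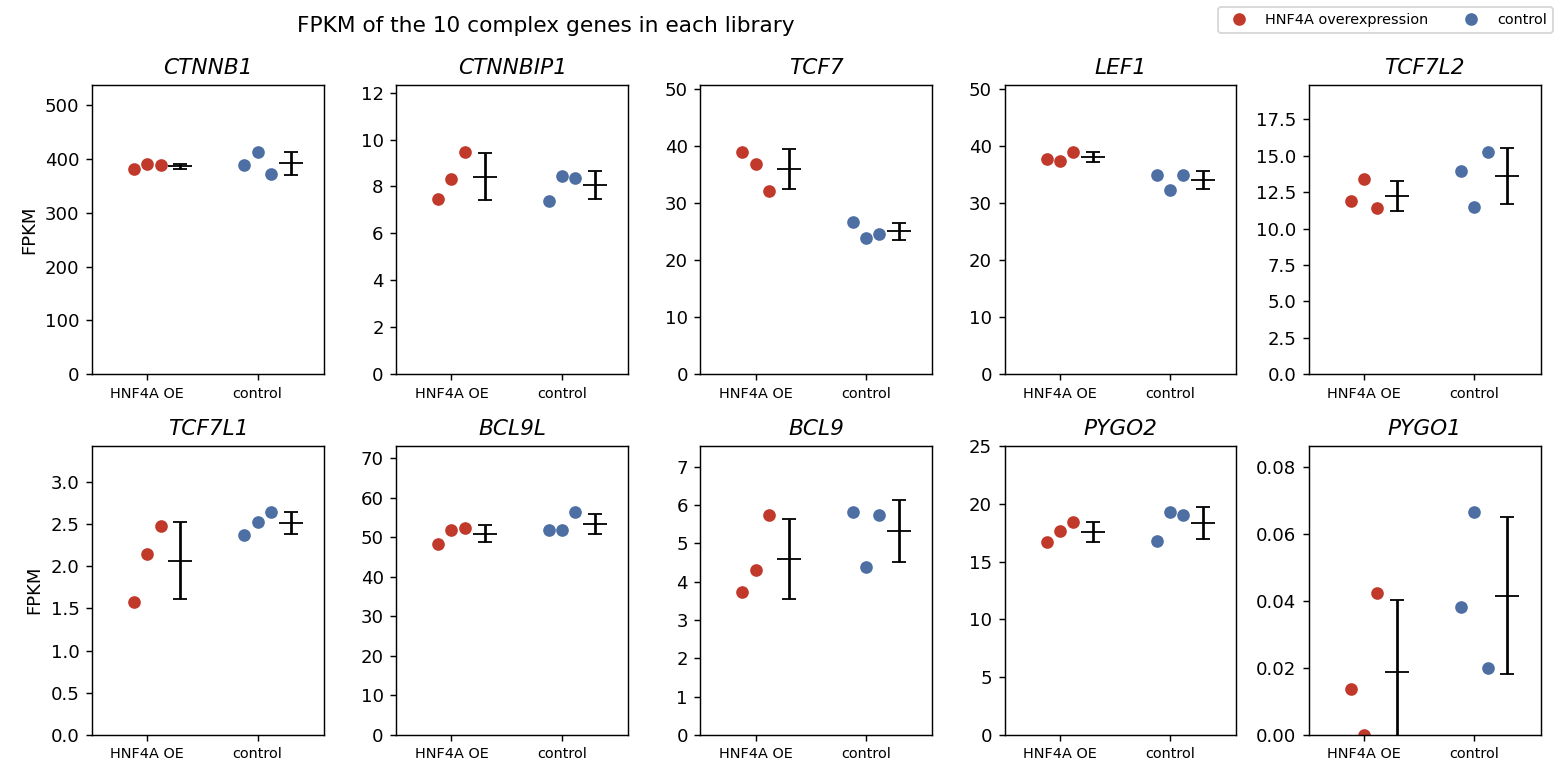
FPKM of each complex gene in each library, with HNF4A overexpression in red and control in blue, 1 panel per gene with its own axis from 0. Points are libraries in replicate order and the bar beside them is the mean with its SD (n = 3; in the PYGO1 panel the bar is drawn only down to 0). The TCF7 points, 32.1 to 39.0 FPKM in overexpression and 23.9 to 26.7 FPKM in control, stand clear of each other, as do the closer points of LEF1, while the groups overlap in the other 8 panels.

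Among the DNA-binding members, TCF7 was measured at 39.0, 36.9 and 32.1 FPKM in HNF4A overexpression and at 26.7, 23.9 and 24.6 FPKM in control. The lowest overexpression library lay above the highest control. In bulk RNA a difference in every cell and one in a part of the cells cannot be told apart. Means were 36.0 ± 3.56 FPKM in HNF4A overexpression and 25.1 ± 1.48 FPKM in control (SD, n = 3 each), a ratio of 1.44, with a log2 change of 0.50 (standard error 0.08, fold interval 1.25 to 1.61, limma adjusted p = 0.0114). By an exact permutation test, two-sided, p was 0.1, which 3 against 3 libraries cannot go below. Leaving out any 1 library kept the call of TCF7 (adjusted p from 0.00844 to 0.0484), but it was lost when genes of low level were kept in the test, where 32006 genes entered and its adjusted p was 0.0872. It was the 1 called gene among 9 tested members, while 4.79 percent of all 14106 tested genes were called, 3.40 percent as higher and 1.39 percent as lower. At an unadjusted p under 0.05 there were 2 members, TCF7 and LEF1, beside 18.0 percent of tested genes, 10.8 percent as higher and 7.29 percent as lower. The median log2 change over the 9 tested members was -0.06, beside 0.01 over all tested genes.

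TCF7 overlaps SKP1, a subunit of SCF ubiquitin ligases, over 2931 bases at the 3' ends of both genes, which lie on opposite strands. Whether the counting used strand is not stated in the labels. SKP1 stood at 391, 375 and 422 FPKM in HNF4A overexpression and at 389, 415 and 445 FPKM in control (log2 change -0.07, limma adjusted p = 0.637), with overlapping groups. The part of shared fragments in the TCF7 values was not tested.

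LEF1, the factor closest to TCF7 in level, lies on chromosome 4 from 108047545 to 108168956 (minus strand). It was measured at 37.8, 37.4 and 39.0 FPKM in HNF4A overexpression and at 34.9, 32.2 and 34.9 FPKM in control. Here too the groups stood apart. They did so in 2 of the 9 tested members, TCF7 and LEF1, and in 23.8 percent of all tested genes. The difference was small, with a log2 change of 0.16 (standard error 0.05, fold interval 1.03 to 1.21), and it did not pass (unadjusted p = 0.0164, limma adjusted p = 0.150). LEF1-AS1, a transcript that starts beside LEF1 on the other strand and overlaps it over 1432 bases, stood at 2.51, 3.37 and 3.29 FPKM in HNF4A overexpression and at 3.23, 2.84 and 3.04 FPKM in control, with overlapping groups.

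TCF7L2 encodes TCF4, the family member best known in the intestinal epithelium, where it is needed for the crypt progenitors of mice. The gene lies on chromosome 10 from 112950250 to 113167678 (plus strand), and was measured at 11.9, 13.4 and 11.4 FPKM in HNF4A overexpression and at 14.0, 11.5 and 15.3 FPKM in control. The groups overlapped through control replicate 2 (log2 change -0.13, standard error 0.11, limma adjusted p = 0.583, fold interval 0.769 to 1.08). TCF7L1 encodes TCF3, which acts mostly as a repressor, for example in mouse embryonic stem cells. It lies on chromosome 2 from 85133410 to 85310388 (plus strand) and was the scarcest of the 4 factors, at 1.58, 2.15 and 2.47 FPKM in HNF4A overexpression and at 2.37, 2.53 and 2.64 FPKM in control. A single overexpression library reached into the control range (log2 change -0.21 on the log2(FPKM + 1) scale, standard error 0.13, limma adjusted p = 0.454, fold interval 0.709 to 1.06).

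**Figure D2:**
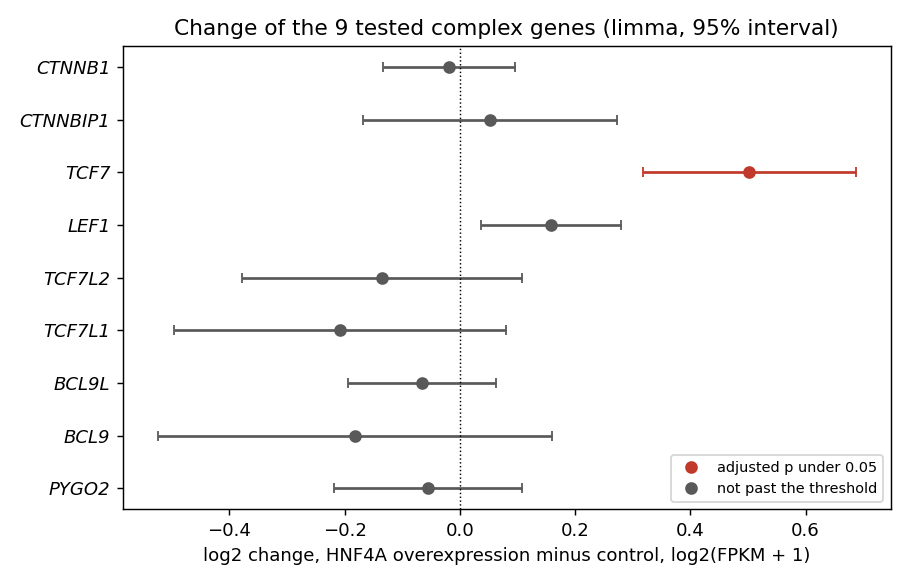
Log2 change of the 9 tested complex genes, HNF4A overexpression minus control, on the log2(FPKM + 1) scale, with its 95 percent interval from limma over 6 libraries. TCF7 at 0.50 is past the adjusted threshold and drawn in red. LEF1 at 0.16 has an interval clear of 0 but did not pass after adjustment, and the intervals of the other 7 genes hold 0.

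FPKM is scaled by transcript length, so the 4 factors can be set side by side as a pool. Their summed level was 90.3, 89.9 and 85.0 FPKM in HNF4A overexpression and 77.9, 70.1 and 77.5 FPKM in control. The pool was thus larger in every overexpression library than in any control. It contains TCF7, whose mean was 36.0 FPKM in HNF4A overexpression and 25.1 FPKM in control. The size of the pool and the ratios below therefore restate the TCF7 difference in part. TCF7 made up 43.2, 41.1 and 37.8 percent of it in HNF4A overexpression and 34.3, 34.0 and 31.8 percent in control. TCF7L2 made up 13.2, 14.9 and 13.4 percent in HNF4A overexpression and 17.9, 16.4 and 19.7 percent in control, and the share of TCF7L1 was 2.35 ± 0.585 percent in HNF4A overexpression and 3.35 ± 0.285 percent in control (SD, n = 3 each). LEF1 held a like part in both groups, 43.1 ± 2.40 percent in HNF4A overexpression and 45.3 ± 0.640 percent in control, with overlapping libraries. Shares add up to the whole, so a larger share of 1 factor lowers those of the others, and no test was run on them. The ratio of TCF7 to TCF7L2 was 3.29, 2.75 and 2.81 in HNF4A overexpression and 1.91, 2.07 and 1.61 in control. CTNNB1 stood at 4.22, 4.34 and 4.57 FPKM per FPKM of the TCF/LEF pool in HNF4A overexpression and at 4.99, 5.90 and 4.81 in control, so transcripts of beta-catenin outnumbered those of its DNA-binding partners per length in each library.

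**Figure D3:**
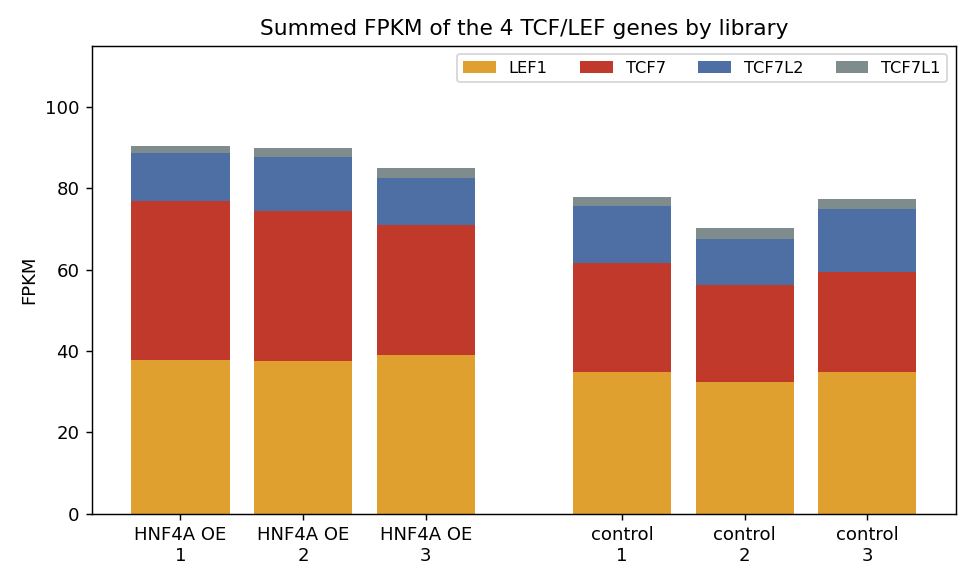
Stacked FPKM of LEF1, TCF7, TCF7L2 and TCF7L1 in each library, HNF4A overexpression on the left and control on the right, with bars from 0. The red TCF7 segment is the one that differs most in height, and the bars end at 85.0 to 90.3 FPKM in overexpression and 70.1 to 77.9 FPKM in control.

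The adaptor genes showed a strong preference for 1 member of each pair. BCL9L (chromosome 11, 118893875 to 118925608, minus strand) was measured at 48.4, 51.9 and 52.3 FPKM in HNF4A overexpression and at 51.8, 51.8 and 56.3 FPKM in control. BCL9 (chromosome 1, 147541412 to 147626216, plus strand) stood at 3.72, 4.31 and 5.74 FPKM in HNF4A overexpression and at 5.80, 4.38 and 5.74 FPKM in control. BCL9L thus held 91.8 ± 1.45 percent of the pair in HNF4A overexpression and 91.0 ± 1.15 percent in control (SD, n = 3 each). Neither passed, with overlapping groups in both. The log2 change of BCL9L was -0.07 (standard error 0.06, limma adjusted p = 0.617, fold interval 0.874 to 1.04). That of BCL9 was -0.18 (standard error 0.15, limma adjusted p = 0.602). On the log2(FPKM + 1) scale its fold interval of 0.695 to 1.12 was the widest among the tested members. Its SD was 22.6 percent of the mean in the 3 overexpression libraries. For the scarcer TCF7L1, whose interval this scale narrows more, the SD was 22.0 percent there.

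PYGO2 (chromosome 1, 154957026 to 154963853, minus strand), the Pygopus gene in wide use across tissues, was measured at 16.7, 17.6 and 18.4 FPKM in HNF4A overexpression and at 16.8, 19.3 and 19.0 FPKM in control. The groups overlapped (log2 change -0.06, standard error 0.07, limma adjusted p = 0.767, fold interval 0.859 to 1.08). Its annotation overlaps SHC1, an adaptor of receptor tyrosine kinases, over 1556 bases on the same strand. SHC1 was at 54.3 ± 8.08 FPKM in HNF4A overexpression and 62.8 ± 6.74 FPKM in control (SD, n = 3 each), so some fragments may be shared. PYGO1 (chromosome 15, 55538890 to 55588947, minus strand) was close to silent, at 0.0136, 0 and 0.0424 FPKM in HNF4A overexpression and at 0.0381, 0.0663 and 0.0199 FPKM in control. It was under the filter and was not tested.

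The order of the complex genes by mean level was the same in both groups, and ran CTNNB1, BCL9L, LEF1, TCF7, PYGO2, TCF7L2, CTNNBIP1, BCL9, TCF7L1 and PYGO1. In control no neighbours in this order had overlapping libraries. In HNF4A overexpression LEF1 and TCF7 did overlap, and their ratio, TCF7 over LEF1, was 1.03, 0.986 and 0.822 in HNF4A overexpression, against 0.766, 0.740 and 0.705 in control. Set among all tested genes by mean level, BCL9L stood above 87.5 percent, LEF1 above 81.0 percent and TCF7 above 77.6 percent of them, while TCF7L1 stood above 15.6 percent.

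Beyond the complex genes, 16 coactivators that join beta-catenin in the nucleus were read from the same fit. All 16 were tested and 0 passed in either direction (limma). At an unadjusted p under 0.05, 2 were lower and 0 higher, beside 7.29 percent lower and 10.8 percent higher over all tested genes. The 2 were MED13 and TNIK, named after their values were seen. The median log2 change was -0.04, against the 0.01 over all tested genes. By the mean over all 6 libraries the highest levels were those of RUVBL1, an ATPase of chromatin remodelling complexes, at 61.2 ± 1.26 FPKM in HNF4A overexpression and 63.7 ± 1.93 FPKM in control (limma adjusted p = 0.595), and CDK8, the Mediator kinase, at 60.3 ± 4.11 FPKM in HNF4A overexpression and 61.3 ± 3.49 FPKM in control (limma adjusted p = 0.896; SD, n = 3 each).

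Of 14 tested nuclear repressors and antagonists, 0 passed (limma), with a median log2 change of -0.08. At an unadjusted p under 0.05, 4 were lower and 0 higher, beside 7.29 percent lower and 10.8 percent higher over all tested genes. These 4, TLE1, TLE4, TLE5 and CTBP2, were named after their values were seen. RUVBL2, a partner of RUVBL1 with an opposing effect on beta-catenin, was at 127 ± 5.46 FPKM in HNF4A overexpression and 124 ± 9.27 FPKM in control. TLE5, a short TLE protein that lacks part of the repressor module, was at 84.4, 97.7 and 95.8 FPKM in HNF4A overexpression and at 106, 106 and 107 FPKM in control (log2 change -0.21, limma adjusted p = 0.108). TLE1, a Groucho/TLE corepressor, was at 3.30, 2.96 and 3.59 FPKM in HNF4A overexpression and at 5.54, 4.95 and 4.22 FPKM in control. The groups of TLE1 did not overlap and its log2 change was -0.46, just short of the threshold (limma adjusted p = 0.0550). With each library rescaled to a common median its adjusted p was 0.0497, with quantile normalization 0.0445, and over all its alternatives it ran from 0.0445 to 0.182.

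Outside the nucleus beta-catenin is held by cadherins and by the degradation complex. Of 8 such partners tested, 2 rose and 0 fell, with a median log2 change of 0.20, beside 3.40 percent called higher and 1.39 percent lower over all tested genes. At an unadjusted p under 0.05, 5 of the 8 were higher and 0 lower, beside 10.8 percent higher and 7.29 percent lower over all tested genes. Apart from CDH1 and CDH3 these were CTNNA1, JUP and APC, named after their values were seen (limma adjusted p = 0.0636, 0.105 and 0.160). CDH1, the E-cadherin gene, was at 18.0, 17.0 and 18.0 FPKM in HNF4A overexpression and at 11.2, 13.1 and 11.7 FPKM in control (log2 change 0.52, limma adjusted p = 0.00522). CDH3, the P-cadherin gene, was at 23.8, 19.8 and 21.8 FPKM in HNF4A overexpression and at 12.6, 15.8 and 12.8 FPKM in control (log2 change 0.63, limma adjusted p = 0.0105, or 0.0891 with genes of low level kept). The name CDH3 stands on several rows of the table, of which the row of highest level was used.

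Of 23 TCF/LEF target genes 21 were tested, of which 2 rose and 1 fell, beside the same 3.40 and 1.39 percent over all tested genes. The targets had 7 changes above 0 and 14 below it, with a median of -0.05, and all tested genes had 7493 above and 6613 below. At an unadjusted p under 0.05, 4 targets were higher and 5 lower, beside 10.8 percent higher and 7.29 percent lower over all tested genes. Apart from the called genes, the higher ones were EPHB2 and RNF43 (limma adjusted p = 0.0580 and 0.0718). The lower ones were EPHB3, SOX4, TDGF1 and DKK1 (limma adjusted p = 0.0562, 0.0805, 0.0873 and 0.110). These were named after their values were seen. AXIN2, a feedback inhibitor of the pathway and also among the 8 partners, was at 217, 201 and 207 FPKM in HNF4A overexpression and at 218, 214 and 215 FPKM in control (log2 change -0.05, limma adjusted p = 0.611). MYC was at 74.2, 71.9 and 72.3 FPKM in HNF4A overexpression and at 78.5, 73.6 and 73.7 FPKM in control (limma adjusted p = 0.685). NOTUM (log2 change 0.45, limma adjusted p = 0.00782) and TNFRSF19 (log2 change 0.46, limma adjusted p = 0.0161) were the genes that rose. CCND1, the cyclin D1 gene, fell (log2 change -0.31, limma adjusted p = 0.0267). Leaving out 1 library left 1 to 2 of the targets higher and 0 to 1 lower. In 4 of these 6 fits TNFRSF19 was not past the threshold (adjusted p from 0.0197 to 0.0607), and in 5 of 6 CCND1 was not (0.0480 to 0.0811). Both lost their call when genes of low level were kept, with adjusted p of 0.0827 for TNFRSF19 and 0.133 for CCND1, and that of CCND1 was also lost with no mean-variance trend (0.0667). NOTUM kept its call in all 6 fits without 1 library.

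**Figure D4:**
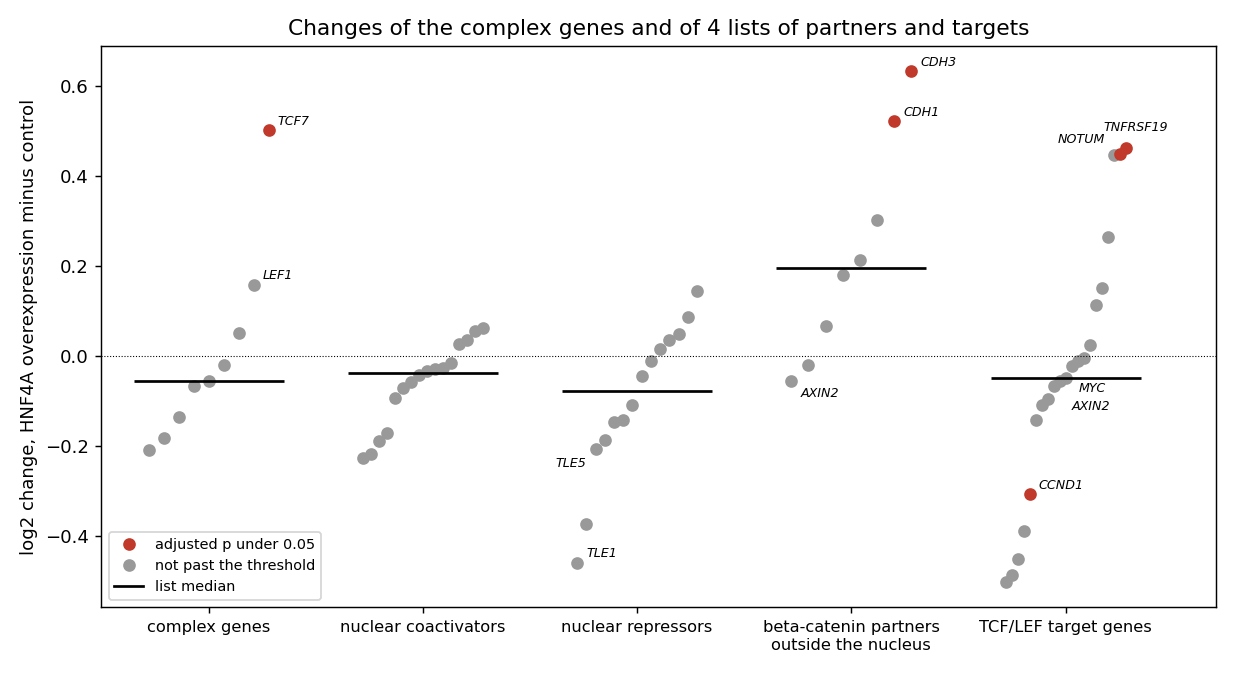
Log2 change of every tested gene, HNF4A overexpression minus control, in the complex and in 4 lists of partners and targets, sorted within each list. Red points are past the adjusted threshold, grey points are not, and the black line is the list median. TCF7 stands alone in the complex genes at 0.50, and no point of the coactivator or repressor list is red, although TLE1 at -0.46 lies lowest among the repressors.

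Across the 6 libraries the 3 tested genes outside the complex whose log2 level followed TCF7 most closely were ABHD6, a lipid hydrolase gene, with a Pearson correlation of 0.996, HPDL with 0.995, and FBXO31, an F-box gene, with 0.992. HPDL was at 13.9, 13.3 and 11.1 FPKM in HNF4A overexpression and at 9.31, 8.72 and 8.69 FPKM in control. All 3 genes had the library order of TCF7 within the overexpression group. They were picked for their correlation over these same libraries, so a shared order adds nothing to it. The 6 libraries fall into the same 2 groups for every gene, and 472 of 14097 genes had a correlation above 0.9. Among the tested members, the correlation of TCF7 was 0.832 with LEF1 and -0.818 with TCF7L1, with values between these for the rest.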

How the data were processed

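RNA-seq of 6 SW480 libraries, 3 overexpressing HNF4A and 3 control, was grouped by the sample titles. The authors deposited FPKM values per gene symbol for 60694 rows, per the file headers, beside the mean of each group and their own fold and p-value columns, which were not used. Per the submitters' processing notes, FastQC, Bowtie, Bowtie2, TopHat, TopHat2, Cufflinks and hg38 were used, with no role stated. The annotation and strandedness are not stated there, and a change in transcript usage can move an FPKM value. Of each symbol the row of highest mean was kept. Depth is unknown, so the 3 libraries per group limit the precision.

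Values were tested as log2(FPKM + 1) with limma 3.58.1 in R 4.3.3 (eBayes with trend, no term other than group) in 14106 genes with at least 1 FPKM in 3 of the 6 libraries, with Benjamini-Hochberg adjustment over all of them and 0.05 as the threshold. This scale understates changes of genes near 1 FPKM. SD are on the FPKM scale. The procedure was tested on simulated data. Named genes were HNF4A, all members, called genes of each list (or its 2 of highest level), AXIN2, MYC, genes overlapping members and the 3 most correlated with the member of smallest p. Members and lists were chosen with earlier results of these data known. The labels call the replicates biological, without saying how the cultures were kept apart, so p-values measure the spread between these samples. Alternatives were the pseudocount, the filter, rescaling, quantile normalization, a replicate block, no trend and leaving out each library. Promoter windows come from RefSeq. A listed marker gene is not reported here.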

Additional observations from a re-analysis of the deposited data

How the results depend on the processing

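TCF7 kept its direction in each alternative run. Its log2 change was 0.44 to 0.58 when 1 library was left out and 0.49 to 0.52 otherwise. It passed in all but 1 run, the test of all genes above 0 FPKM (0.50, adjusted p = 0.0872, no member called higher, so 0 in place of 1). There 32006 genes entered both the variance estimate of limma and the adjustment, and the part of each in the lost call was not tested. Of 116 values of the 9 tested members 111 kept direction and side. The other changes of sign were in values close to 0. CTNNB1 was at 0.0043 with quantile normalization and from -0.054 to 0.021 without 1 library, and CTNNBIP1 from -0.027 to 0.13. Without 1 library CDK8 ran from -0.067 to 0.029, RUVBL2 from -0.025 to 0.077, ULK4 from -0.19 to 0.021 and LEF1-AS1 from -0.056 to 0.10, and LEF1-AS1 was at -2.5e-05 with a pseudocount of 0.1, -0.011 with median rescaling and -0.058 with quantile normalization. For these the cause was not tested.

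Over all genes 480 were higher and 196 lower, against 201 and 49 with no filter, 274 to 313 and 87 to 161 without 1 library, and 638 and 399 with the replicate block. With no filter 1 partner outside the nucleus and 1 target were higher and 0 targets lower. Median rescaling and quantile normalization each left 1 repressor, TLE1, and 2 targets lower. Same-numbered libraries correlated in their deviations at 0.0914 to 0.15 and others at -0.12 to -0.01, so each library went best with its own number, a hint from the data and not from the design. Under the replicate block 4 targets were higher and 4 lower, and TCF7 stayed the only member called (adjusted p = 0.00931). Without 1 library 1 to 2 targets were higher and 0 to 1 lower. The filter at 5 FPKM gave no value for TCF7L1. Changes of FPKM well under the intervals given could not be seen with 3 libraries a group.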
